A study of Homo sapiens with 12 samples.

Results

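Narrow peaks near gene starts are short stretches of RNA, enriched by an antibody against N4-acetylcytidine (ac4C), that lie at the beginning of a protein-coding gene. A peak was taken where it was at most 1000 bp wide, overlapped the span of exactly 1 RefSeq gene, that gene was protein-coding, and the peak's midpoint fell in the first 10% of the span. The beginning of the span was set by the strand deposited with the peak. They are called start peaks here. The control list held 1326 start peaks on 1049 genes and the knockdown list 1328 on 1107 genes, together 2654 of the 62412 peaks in both lists (34365 and 28047).

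The peaks come from RBE cells, a human intrahepatic cholangiocarcinoma line, and 12 libraries form 4 groups of 3, an ac4C immunoprecipitate and its input in each arm. The control arm carried the sh-NC hairpin and the knockdown arm the sh-NAT10 hairpin. Per the labels' protocols, the sh-NAT10 hairpin was delivered by lentivirus, and puromycin-resistant colonies were expanded into stable lines, so the arms differ in hairpin and in the expanded population. How many hairpins or colonies were used, and whether replicates were separate cultures, is not stated in the sources used here. Each arm has 1 peak list that does not separate its replicates, so the spread between replicates is unmeasured and the arms are set side by side without p-values. The read depth behind the lists is unknown, and fewer acetylated molecules, less RNA of the gene and fewer reads cannot be told apart as the reason a peak is missing.

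NAT10 is the enzyme that acetylates cytidine in RNA, and its best known substrates are 18S ribosomal RNA and some transfer RNAs, where it acts with partner proteins. In messenger RNA, ac4C has been mapped by antibody enrichment, with reports of effects on stability and translation that depend on where along the message it lies. The first part of a gene holds the promoter-proximal end of the transcript, with the 5′ untranslated region, the start codon and often a long first intron, and the translation start is where the ribosome selects its reading frame.

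The cell type was looked at through peaks on marker genes, which are not RNA levels. Of 6 biliary markers, 5 carried peaks in either list (33 peaks in each list, all but EPCAM), and KRT7, a keratin of bile duct epithelium, had start peaks in both lists. Of 4 hepatocyte markers, 1 (ALB) had a single control peak and none a knockdown peak. Of 4 neuronal markers, 4 had control peaks (44 in all) and 2 had knockdown peaks (5 in all), none of them a start peak. For 3 glial markers these counts were 15 peaks on 2 genes against 0. Both immune markers had peaks, 6 in each list, and CD68, a lysosomal protein of macrophages, was the one marker outside the biliary set with a start peak, which it had in both lists. Of 3 stromal markers, 1 had control peaks (SPARC, 3) and another a knockdown peak (COL1A1, 1). NAT10 had 3 narrow peaks (control) and 4 (knockdown), and CHAF1A, a subunit of the histone chaperone CAF-1 and the gene tested by PCR in the labels' protocols, had 10 and 4, but neither gene had a start peak in either list. NAT10 RNA itself was not measured by these lists, so the knockdown was not checked here.

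The following 10 genes show what a start peak at the very beginning of a transcript looks like in sequence, taken as the highest-scoring shared control, unshared control and unshared knockdown start peaks that reach into the first 30 transcribed bases. The letters run 5′ to 3′ on the gene's strand, from RefSeq on GRCh38.p14, with 70 bases before the annotated start in lower case and the first 30 transcribed bases in capitals. Every peak carries a deposited score, which is the authors' own value on an unstated scale and is used only to describe and rank peaks within a list. Where a pair of scores is given for a site, the control score comes first. The first 4 genes have a start peak in both lists at the same coordinates.
MT2A, chr16:56608514-56608613, plus strand: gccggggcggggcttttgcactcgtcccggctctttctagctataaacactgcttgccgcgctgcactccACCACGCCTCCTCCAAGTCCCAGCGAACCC
YBX1, chr1:42682348-42682447, plus strand: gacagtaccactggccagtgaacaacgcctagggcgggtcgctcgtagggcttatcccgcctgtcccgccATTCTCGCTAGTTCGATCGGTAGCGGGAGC
RPLP2, chr11:809897-809996, plus strand: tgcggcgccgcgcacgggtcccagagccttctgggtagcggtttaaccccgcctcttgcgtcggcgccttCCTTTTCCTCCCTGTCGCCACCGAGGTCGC
PRRC2A, chr6:31620645-31620744, plus strand: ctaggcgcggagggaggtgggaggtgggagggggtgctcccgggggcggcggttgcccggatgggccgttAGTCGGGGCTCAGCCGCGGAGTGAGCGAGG

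MT2A encodes a metallothionein, a small metal-binding protein, and its peak covered transcribed bases 1 to 125 with a score of 26.79 (control) and 35.85 (knockdown). Of its 30 capital letters 16 are C. YBX1 encodes a cold shock domain protein that binds messenger RNA, and its peak covered bases 1 to 580 with scores of 26.66 and 20.9. RPLP2, an acidic protein of the ribosomal stalk, had its peak at bases 24 to 98 with scores of 19.5 and 33.85, and 14 of its 30 capitals are C. PRRC2A, an RNA-binding protein, had its peak at bases 26 to 125 with scores of 16.31 and 30.61, and both PRRC2A and YBX1 have 7 C among the 30. Among these 4 shared sites the number of C in the first 30 bases thus ran from 7 to 16.

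The next 3 genes have such a peak in the control list alone.
RYBP, chr3:72446594-72446693, minus strand: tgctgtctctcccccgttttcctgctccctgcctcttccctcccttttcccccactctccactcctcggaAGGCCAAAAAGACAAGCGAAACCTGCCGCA
IL1RAPL1, chrX:28587376-28587475, plus strand: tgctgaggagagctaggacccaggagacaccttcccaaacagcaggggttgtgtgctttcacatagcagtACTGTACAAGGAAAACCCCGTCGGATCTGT
SCN2B, chr11:118176610-118176709, minus strand: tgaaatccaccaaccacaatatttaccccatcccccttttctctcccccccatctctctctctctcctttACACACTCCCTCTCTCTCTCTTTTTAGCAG

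RYBP, a subunit of a Polycomb repressive complex, had its control peak at transcribed bases 5 to 104 with a score of 13.58. IL1RAPL1, a synaptic membrane protein of the interleukin receptor family, had one at bases 1 to 225 with a score of 13.41. SCN2B, a beta subunit of voltage-gated sodium channels, had one at bases 29 to 178 with a score of 13.07. No knockdown peak overlapped any of the 3, and their first 30 bases hold 9, 8 and 12 C. The last 3 genes have such a peak in the knockdown list alone.
PSENEN, chr19:35745581-35745680, plus strand: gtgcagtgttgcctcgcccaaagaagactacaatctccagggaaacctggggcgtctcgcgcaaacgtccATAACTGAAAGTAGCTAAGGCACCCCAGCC
SLC25A3, chr12:98593616-98593715, plus strand: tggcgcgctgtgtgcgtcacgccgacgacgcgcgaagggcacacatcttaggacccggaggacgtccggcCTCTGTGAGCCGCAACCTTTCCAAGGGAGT
ARF6, chr14:49893012-49893111, plus strand: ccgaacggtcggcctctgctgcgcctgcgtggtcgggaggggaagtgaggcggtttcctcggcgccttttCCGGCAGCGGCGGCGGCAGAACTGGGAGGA

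PSENEN, a subunit of the gamma-secretase protease, had a knockdown peak that reached from 1 base before the annotated start to transcribed base 208 with a score of 25.26. SLC25A3, the mitochondrial phosphate carrier, had one at bases 6 to 55 with a score of 17.04. ARF6, a small GTPase of membrane traffic, had one at bases 23 to 97 with a score of 13.32. Their first 30 bases hold 9, 9 and 8 C. Start peaks this close to the annotated start were rare. On genes whose strand and start the sequence table gives, 36 control and 39 knockdown start peaks reached the first 50 transcribed bases, and 20 and 22 of them were shared.

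The question of the first comparison was where narrow peaks lie along genes in each arm. The first 10% of the gene held 1326 of 18341 narrow control peaks, 7.23% (95% Wilson interval 6.86 to 7.61%), and 1328 of 14616 narrow knockdown peaks, 9.09% (8.63 to 9.56%). These intervals, as all below, cover counting error only and treat peaks as independent, although neighbouring peaks share a gene. The knockdown list was shorter yet held as many start peaks. Most of the difference in number lay at the other end, where the last 10% held 5609 control peaks (30.6%) and 3296 knockdown peaks (22.6%). The knockdown share was higher in every stretch except the last, so its higher share is not particular to gene starts. The stretch from 10 to 20% was the emptiest of the 10 stretches in both lists, with 758 (4.13%) and 641 (4.39%) peaks. Start peaks thus form a separate rise ahead of an increase towards the gene end. That increase was gradual up to the stretch before the last (13.7% control, 15.1% knockdown) and steep in the last, most of all in the control list.

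**Figure D1:**
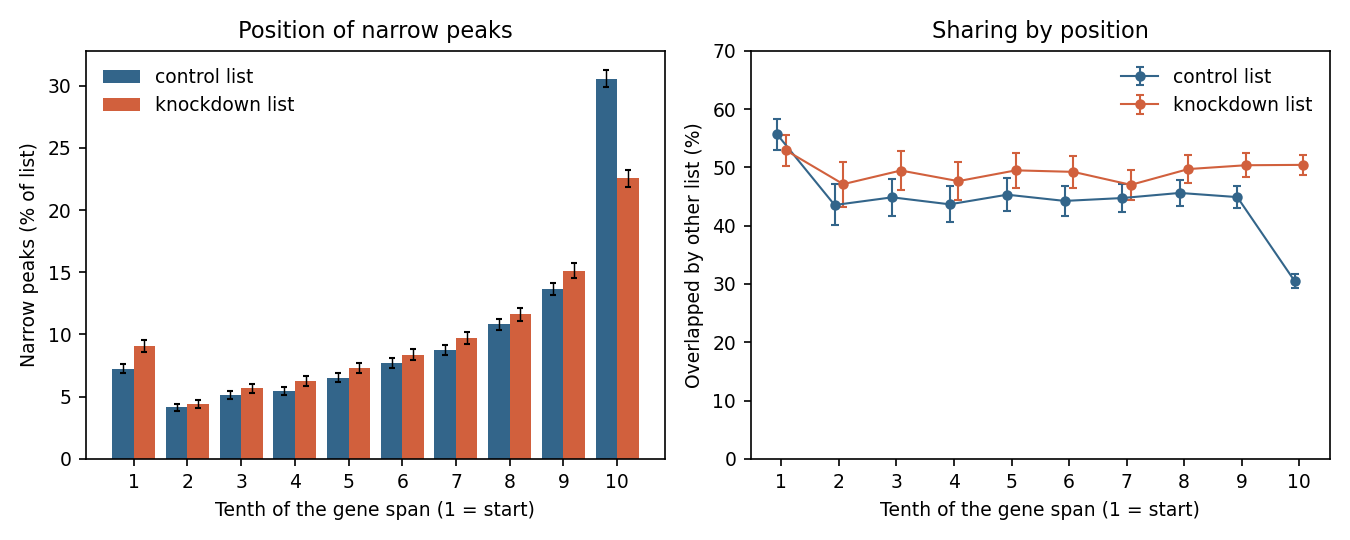
Left, percent of each list's narrow peaks in each of 10 equal stretches of the gene span, from start (1) to end (10). Right, percent of the narrow peaks in each stretch that a peak of the other list overlaps on the same strand. Bars and error bars are the values with 95% Wilson intervals (counting error only). The first stretch stands above the second in both lists (7.23% against 4.13%, and 9.09% against 4.39%), and the last stretch of the control list has the lowest overlap, 30.5%.

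Within the first 10% of the span the start peaks crowded towards the gene start. The median distance of a midpoint from the start was 737.5 bp for control and 630.25 bp for knockdown start peaks. Of the control start peaks 787 (59.4%) lay within 1000 bp and 128 lay over 5000 bp away, where the span is long enough to hold them. In the knockdown list these counts were 861 (64.8%) and 83. The first 1% of the span alone held 495 control start peaks (37.3%) and 535 knockdown start peaks (40.3%). The peaks were short, with median widths of 100 and 75 bp, and 1155 and 1134 of them had a width that is a multiple of 25 bp.

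**Figure D2:**
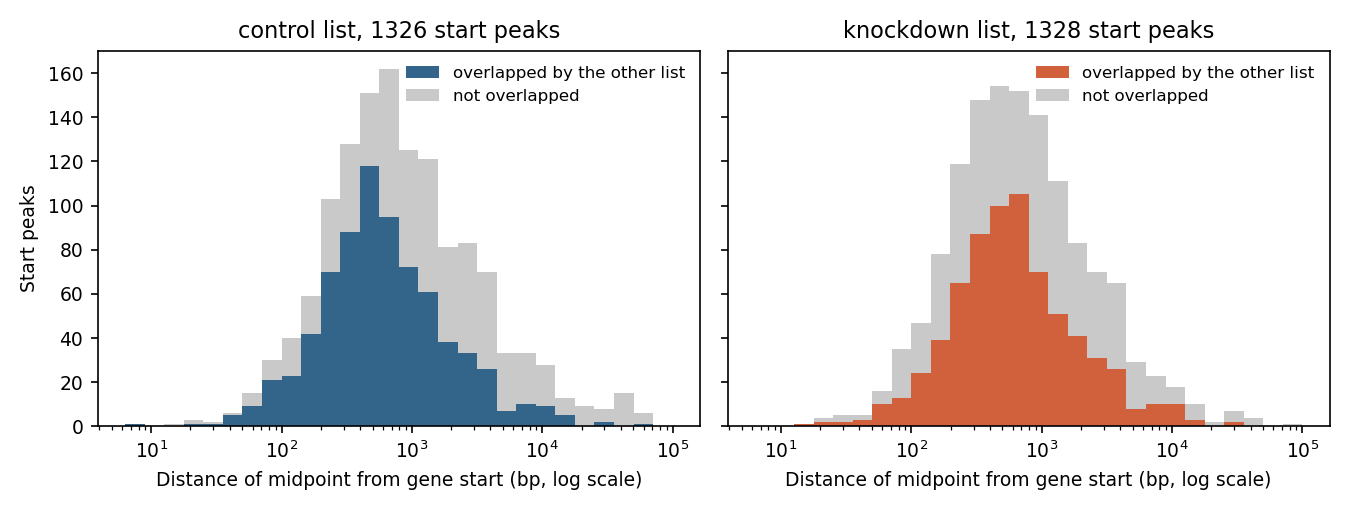
Number of start peaks by distance of the midpoint from the gene start (log scale, bp), with peaks overlapped by the other list in colour and the others stacked above in grey. In both lists the counts are highest between 200 and 1000 bp from the start, and the grey share is larger beyond 1000 bp, where 39.5% of control and 42.6% of knockdown start peaks were overlapped.

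Scores of start peaks had a median of 11.86 (quartiles 10.86 and 14.10) in the control list and 12.10 (10.87 and 15.14) in the knockdown list. A score of 20 or more was listed for 122 control start peaks (9.20%, interval 7.76 to 10.9%), against 7.63% of the other narrow control peaks. In the knockdown list it was 166 start peaks (12.5%, 10.8 to 14.4%), against 10.2% of the others. Each list had 12 start peaks of 50 or more, and 6 and 9 below 10, the edge above which most scores lie. Beside the 10% limit, the 74 control peaks at 9 to 10% of the span had a median score of 11.5 and the 70 at 10 to 11% one of 12.3. For the knockdown list these were 61 peaks with 12.3 and 55 with 11.7.

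The next comparison asked how many start peaks were present in both arms. A peak counted as shared where a peak of the other list, of any width, overlapped it by at least 1 bp on the same strand. Of the control start peaks 738 were shared, 55.7% (53.0 to 58.3%), beside 41.2% of all narrow control peaks in 1 protein-coding gene. The share was 44.8% from 10 to 90% of the span and 30.5% in the last 10%, so control start peaks had a counterpart more often than control peaks elsewhere by more than counting error. Of the knockdown start peaks 703 were shared, 52.9% (50.2 to 55.6%), beside 49.7% of all narrow knockdown peaks. That is close to the background, and the last 10% of the span had 50.4%. The control list is the longer one and so offers more partners.

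Sharing depended on the distance from the gene start. In the control list 66.7% of start peaks within 1000 bp were shared (63.3 to 69.9%) and 39.5% of those farther in (35.5 to 43.7%), which is near the background. In the knockdown list the shares were 58.5% (55.2 to 61.8%) and 42.6% (38.2 to 47.1%), the first above the background and the second below it. The highest share of a distance class was 72.3% at 200 to 500 bp in the control list and 63.8% at 500 to 1000 bp in the knockdown list. Up to 200 bp the lists parted, with 65.8% of 158 control start peaks shared (58.1 to 72.8%) and 49.2% of 191 knockdown start peaks (42.2 to 56.2%). Beyond 5000 bp 24.2% of control and 34.9% of knockdown start peaks had a counterpart.

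Sharing also went with the score. Below a score of 11, 36.6% of control and 32.9% of knockdown start peaks were shared. At 15 to 20 the shares were 76.4% and 66.5%. At 20 or more they were 86.9% (79.8 to 91.8%) and 81.3% (74.7 to 86.5%), while other narrow peaks of such scores had 60.3% and 67.3%. In the control list start peaks exceeded other narrow peaks in every score class shown, and in the knockdown list the intervals parted only at 20 and over. Strong start peaks within 1000 bp were shared in 91.1% of cases in both lists (82 of 90 and 102 of 112).

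**Figure D3:**
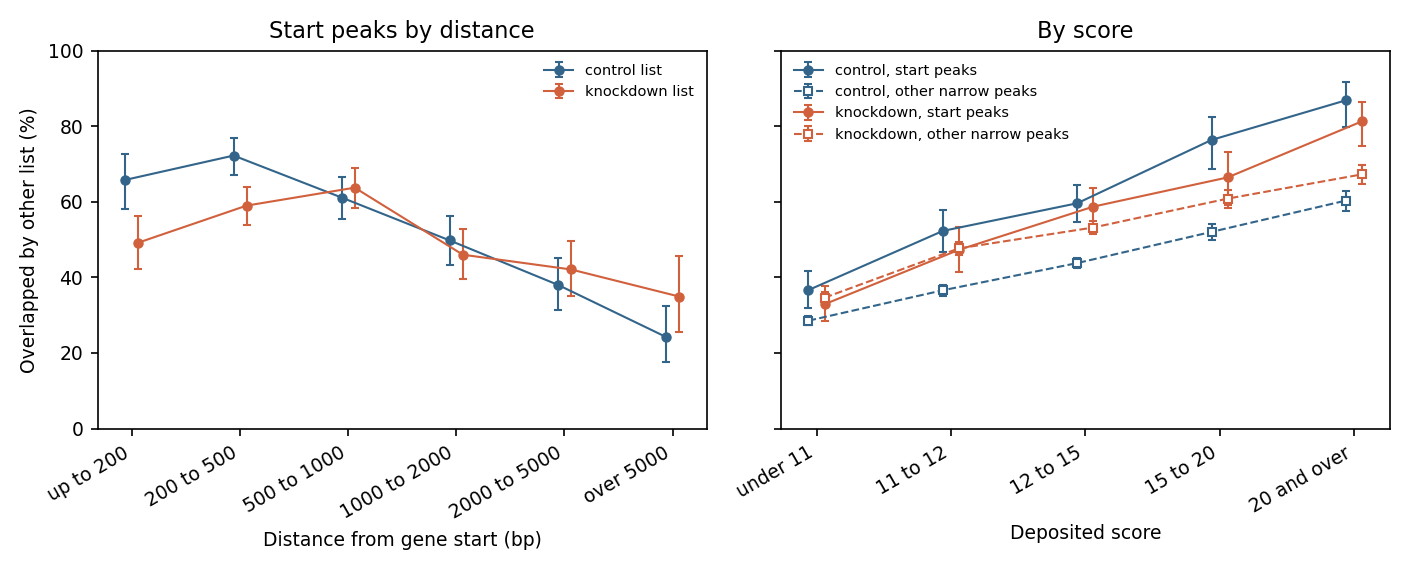
Percent of peaks that a peak of the other list overlaps on the same strand, for start peaks by distance from the gene start (left, bp) and for start peaks (filled) and other narrow peaks (open) by deposited score (right), with 95% Wilson intervals. Control start peaks go from 72.3% at 200 to 500 bp to 24.2% beyond 5000 bp, and from 36.6% below a score of 11 to 86.9% at 20 and over.

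Shared start peaks often had exactly the same borders in both lists. Identical start and end were found for 285 peaks, 38.6% of the shared control and 40.5% of the shared knockdown start peaks, against 24.6% and 25.6% of the other shared narrow peaks. Peaks of exactly 100 bp stood out among them. They made up 22.2% of control start peaks (294) and 20.6% of knockdown start peaks (273), against 10.3% and 10.8% of other narrow peaks. They were shared in 76.5% (71.4 to 81.0%) and 75.1% (69.6 to 79.8%) of cases, while other narrow peaks of 100 bp were shared in 46.5% and 57.9%. Of the identical pairs at gene starts 132 of 285 were 100 bp wide (46.3%), against 15.1% of the 1676 identical control peaks elsewhere. Among start peaks scoring 20 or more, 54.9% of control and 46.4% of knockdown peaks had this width, against 15.4% and 17.0% elsewhere.

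Among the highest-scoring shared start peaks were several of exactly 100 bp and some that were wider. GTF2I, a general transcription factor, had a peak at chr7:74657952-74658051 on the plus strand, 283.5 bp into the gene, with a score of 118.25 (control) and 105.94 (knockdown). A second GTF2I peak at chr7:74657702-74657776 straddled the annotated start with 49.69 and 40.28. Near-identical copies of GTF2I exist in the genome, so its reads may be split between copies. SF3B2, a subunit of the U2 small nuclear ribonucleoprotein that recognises the branch point, had its peak at chr11:66053006-66053105, 691.5 bp in, with 115.1 and 147.36, the highest knockdown score of any start peak. TPT1, the translationally controlled tumour protein, had a peak at chr13:45340710-45340809 on the minus strand with 63.14 and 36.55. These GTF2I, SF3B2 and TPT1 peaks had the same borders in both lists, and within each list they ranked among the strongest start peaks.

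EGFR, the epidermal growth factor receptor, had its start peak at chr7:55019242-55019341, 274.5 bp into a gene of 192612 bp, with a score of 62.13 (control) and 56.99 (knockdown). ACTB, cytoplasmic beta actin, had a wider one of 616 bp at chr7:5529979-5530594 with 60.07 and 70.65. TMEM123, a transmembrane glycoprotein, had one of 757 bp at chr11:102448359-102449115, 4028 bp from the gene start, with 77.82 and 68.53. All 3 were identical in borders between the lists. A TMEM123 peak of 25 bp at 19 bp from the start scored 11.62 in the control list and had no counterpart.

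Of the 10 highest shared control start peaks, 3 had a broad knockdown partner in place of a compact one. VCL, vinculin of cell adhesion sites, had a control peak of 100 bp at chr10:73998260-73998359 with a score of 71.35, and the knockdown peak over it spanned 18581 bp with a score of 0.620. The VCL start peak of the knockdown list was another, at chr10:73998135-73998184, with 11.51. ASPH, an aspartyl hydroxylase, had 100 bp and 82.87 in the control list and a knockdown partner of 24544 bp with 14.7. ALCAM, a cell adhesion molecule, had 100 bp and 55.45 in the control list and a knockdown partner of 71981 bp with 11.4. In all 3 the broad partner began or ended on a border of the compact peak, so the sites count as shared although the knockdown list has no narrow peak there. A partner over 1000 bp was found for 98 shared control start peaks and 48 shared knockdown start peaks. The partner was itself a start peak for 637 (86.3%) and 648 (92.2%).

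The start peaks were next counted by gene list, beside 3 background values. Of all protein-coding genes with a narrow peak (6312 in the control list, 5503 in the knockdown list), 16.6% (control) and 20.1% (knockdown) had a start peak. Of all start peak genes 58.4% and 55.4% had one in both lists, and of all start peaks 55.7% and 52.9% were shared. The gene lists are small, were chosen with results known and were not tested against these values. A gene with many narrow peaks has more chances of a start peak. The background values were not matched for the number of narrow peaks per gene, so a share above them is not read as a preference for gene starts.

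Of 79 cytosolic ribosomal protein genes, 53 had a narrow control peak and 59 a narrow knockdown peak, and 9 (17.0%) and 10 (16.9%) of these had a start peak, which is near the background, with 8 of them in both lists (RPL28, RPL30, RPLP1, RPLP2, RPS16, RPS19, RPS3 and RPS9). All 9 control start peaks and 9 of the 10 knockdown start peaks on them were shared. RPL30 had an identical peak of 125 bp in both lists with 35.66 and 75.31, on the plus strand. No gene strand was given for RPL30, and 4 of its 6 narrow peaks lie on the plus strand. Whether this peak is at the start or the end of RPL30 is therefore uncertain, and it is counted here by the strand of the peak. RPS19 had identical peaks of 75 bp with 25.6 and 23.1, 933 bp into the gene, and RPS16 identical peaks of 264 bp with 18.01 and 24.23. Ribosomal protein genes have many processed copies, so these positions are uncertain where reads could be split.

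Translation factors gave 11 genes with a start peak in each list, of 38 and 41 genes with a narrow peak (28.9% and 26.8%, beside 16.6% and 20.1%), and 9 of the 11 had one in both. In each list 11 of the 15 start peaks on them were shared. EIF4G1, the scaffold of the cap-binding complex, had 2 shared peaks with identical borders. The one at chr3:184315484-184315558 scored 24.27 (control) and 40.97 (knockdown). The other, at chr3:184315759-184315858, scored 11.86 and 53.63, so the higher of the 2 was not the same one in each list. An EIF4G1 peak of 514 bp closest to the start, with a score of 10.6, was in the control list alone. EIF4EBP2, a repressor of cap-dependent translation, had an identical peak of 100 bp with 18.85 and 11.

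Splicing factors gave 9 control and 10 knockdown genes with a start peak, of 40 and 42 with a narrow peak (22.5% and 23.8%), and 3 had one in both (SF3B2, PRPF8 and SF3A2), with 5 of 10 control and 4 of 15 knockdown start peaks shared. Among all start peak genes 41.6% of the control genes had no knockdown start peak and 44.6% of the knockdown genes no control start peak. For splicing factors these were 6 of 9 and 7 of 10. HNRNPD, which binds AU-rich messages, had a control start peak of 395 bp scoring 36.1, and its knockdown partner was 2004 bp wide with 24.3. SRSF1, a serine/arginine-rich splicing activator, had 3 start peaks in the knockdown list, the highest at chr17:58006474-58006927 with 25.11, and no start peak in the control list, which had 4 narrow peaks elsewhere on the gene. The other knockdown-only members were 5 hnRNP genes (HNRNPC, HNRNPF, HNRNPM, HNRNPR and HNRNPU) and SRSF10, and the other control-only members were PRPF19, RBM39, SRSF6, SRSF9 and U2AF2.

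Chromatin genes had start peaks in both lists at the same borders in several cases. Of the histone methyltransferases and acetyltransferases, 14 of 27 genes with a narrow control peak had a start peak (51.9%, beside 16.6% of all genes) and 11 of 27 with a narrow knockdown peak (40.7%, beside 20.1%), 8 of them in both lists. Of the chromatin remodelling genes 10 of 32 (31.2%) and 12 of 36 (33.3%) had one, 7 in both. SETD5, a SET domain protein, had an identical peak at chr3:9397865-9397964 with 18.98 and 29.74. CREBBP, a histone acetyltransferase, had one at chr16:3879835-3879934 with 20.4 and 26.85. ARID1A, a subunit of the BAF remodelling complex that is often mutated in cholangiocarcinoma, had one at chr1:26697433-26697532 with 19.33 and 26.02, although its narrow peaks numbered 17 (control) and 7 (knockdown). EP400, an ATPase of the TIP60 complex, had 4 start peaks in each list, all shared, 10697.5 to 11885 bp into the gene, with scores of 11.51 to 22.31 and 10.67 to 18.63.

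Histone chaperone and silencing genes relate to the series' title on transposable elements. For CAF-1 and other histone chaperones, 3 of 20 genes with a narrow control peak (15%) and 3 of 18 with a narrow knockdown peak (16.7%) had a start peak, near the 16.6% and 20.1% of all genes, and RBBP4, a histone-binding subunit of CAF-1, had one in both (11.08 and 12.84). ASF1B, a chaperone of histones H3 and H4, had a control start peak of 100 bp scoring 14.21 with a knockdown partner of 14748 bp. Of the transposable element silencing genes 3 of 20 (15%) and 2 of 17 (11.8%) had a start peak, namely CBX1, PPHLN1 and TASOR (control) and EHMT2 and TASOR2 (knockdown), with none in both. None of these start peaks was shared, and the highest score per gene ran from 10.04 (CBX1) to 12.73 (PPHLN1). Of 157 KRAB zinc finger genes, repressors many of which bind transposable elements, 50 had a narrow control peak and 16 a narrow knockdown peak. Over all protein-coding genes these counts were 6312 and 5503. Start peaks were found for 0 of the 50 and 2 of the 16 (12.5%). The 2 were ZNF829 (18.66) and ZNF37A (13.23).

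Biliary and cholangiocarcinoma genes had start peaks on 9 of 27 genes with a narrow control peak (33.3%, beside 16.6% of all genes) and 8 of 27 with a narrow knockdown peak (29.6%, beside 20.1%), 7 of them in both lists (BAP1, CCN1, EGFR, KRT7, NOTCH2, SMAD4 and TEAD1). KRT7 had 2 shared start peaks, the stronger of 25 bp at chr12:52233513-52233537 with 25.27 and 25.69. The weaker began at the same base in both lists and scored 10.72 and 13.72. TEAD1, a transcription factor of the Hippo pathway, had a control peak of 100 bp with 29.81 inside a knockdown peak of 724 bp with 16.29. KRT8, the partner keratin of simple epithelia, had a knockdown start peak of 25 bp scoring 10.13 and none in the control list. Of the cytoskeleton and adhesion genes, 10 of 32 (31.2%) and 13 of 31 (41.9%) had a start peak and 9 had one in both, with all 12 control and 10 of 14 knockdown start peaks shared.

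Heat shock and chaperone genes had a start peak in 4 genes of the control list and 9 of the knockdown list. The 4 (CCT3, HSF1, HSP90B1 and HSPA4) were in both lists, and CALR, HSPA1A, HSPA1B, HSPA5 and HSPB1 had one in the knockdown list alone. CCT3, a subunit of the TRiC chaperonin, had an identical peak at chr1:156335807-156335906 with 28.93 (control) and 59.99 (knockdown). CALR, the endoplasmic reticulum chaperone calreticulin, had 100 bp scoring 20.98 in the knockdown list, inside a control peak of 317 bp with 13.9. HSPA1B and HSPA1A are near-identical copies whose reads cannot be assigned with certainty, and they scored 15.58, inside a control peak of 1000 bp that is no start peak, and 12.31, with no counterpart. HSPA5, the chaperone BiP, scored 11.28, and HSPB1, a small heat shock protein, 11.54, neither with a counterpart. Of the heat shock and chaperone genes 27 and 29 had a narrow peak, so the shares with a start peak were 14.8% and 31.0%, beside 16.6% and 20.1% of all genes.

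DNA replication and cell cycle genes gave start peaks on 8 of 29 genes with a narrow control peak (27.6%, beside 16.6% of all genes) and 7 of 36 with a narrow knockdown peak (19.4%, beside 20.1%). In both lists were 3 (CDK6, MCM2 and MKI67), beside 58.4% and 55.4% of all start peak genes. Counted by peak, 9 of 12 control and 3 of 9 knockdown start peaks on these genes were shared, beside 55.7% and 52.9% of all start peaks. CDK6, a kinase that drives entry into S phase, had an identical peak of 100 bp with 12.03 and 26.3. MKI67, the proliferation antigen, had overlapping peaks with 28.87 and 26.99. RRM2, the small subunit of ribonucleotide reductase, had a knockdown start peak of 100 bp scoring 18.17 and no control peak of any kind. CCND1, cyclin D1, had 3 control start peaks on the minus strand, the highest scoring 43.27, inside 1 knockdown peak of 1088 bp with 12.8. Since 11 of the 14 narrow CCND1 peaks lie on the plus strand, the direction of these 3 is uncertain. Ribosome biogenesis genes had start peaks on 2 of 20 and 2 of 23 genes (10% and 8.70%), with RRP12 in both lists. Immediate early and stress transcription factors had them on 3 of 22 and 4 of 20 (13.6% and 20%), with KLF4 and KLF6 in both.

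Of 30 neuronal marker genes 29 had a narrow control peak and 8 a narrow knockdown peak. Over all protein-coding genes these counts were 6312 and 5503. Start peaks were found on 4 of the 29 (13.8%, beside 16.6% of all genes) and on 0 of the 8 (beside 20.1%), so the counts of start peaks add little to those of narrow peaks. PCLO, a presynaptic scaffold, had 2 control start peaks scoring 10.64 and 13.64. GRIA2, an AMPA receptor subunit, had one of 409 bp with 12.89, SCN2A, a neuronal sodium channel, one of 125 bp with 11.44, and NRXN3, a presynaptic adhesion protein, one of 100 bp with 10.8. No start peak on these 4 genes was shared, and all scored below 15. The list was chosen after neuronal genes had been seen among control-only peaks, so its direction is not independent evidence. The peaks on neuronal and glial marker genes given above (44 against 5, and 15 against 0) move with the narrow peak counts, and their part in the result was not tested.

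**Figure D4:**
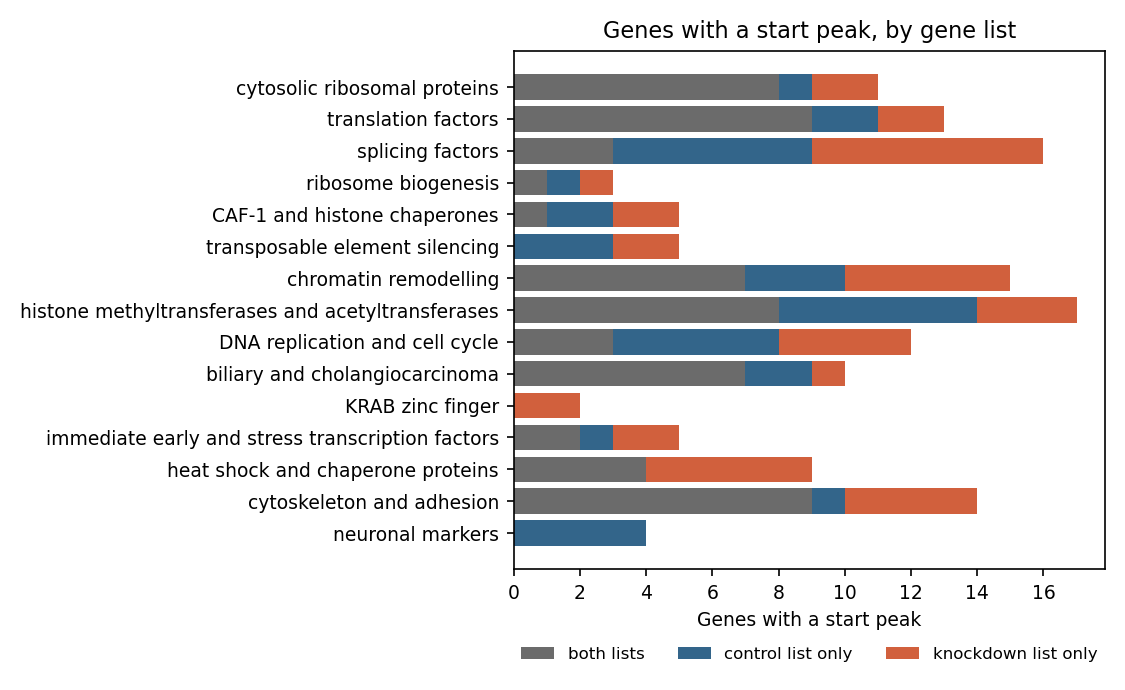
Number of genes with a start peak in each of the 15 gene lists, split by whether the start peak is in both lists (grey), the control list only (blue) or the knockdown list only (orange). Ribosomal proteins and translation factors are mostly grey (8 of 11 and 9 of 13 genes), heat shock genes have no blue segment, and neuronal markers have a blue segment alone.

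The strongest start peaks without a counterpart were then looked at one by one. In the control list the highest was on ETV5, an ETS family transcription factor, at chr3:186105439-186105641 with a score of 37.07. Next to it lies an ETV5 peak of 129 bp with identical borders in both lists (16.34 and 15.11), so within this gene 1 site was shared and its stronger neighbour was not. MCM3AP, a scaffold of messenger RNA export, had an unshared control peak at chr21:46285198-46285372 with 36.26, and RMDN3, a tether of mitochondria to the endoplasmic reticulum, one at chr15:40754613-40754712 with 31.71. GPBP1, a factor that binds GC-rich promoters, had 25.33, MIS18A, needed to load centromeric histone, 25.13, HMGA2, an architectural chromatin protein, 21.88, and CPSF7, a pre-mRNA cleavage factor, 20.92. BTBD9 had 23.76 at 45670.5 bp into its gene. MIS18A had no knockdown narrow peak at all, whereas the other genes of this group had 1 to 5.

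CPEB4, which binds the cytoplasmic polyadenylation element, had 7 start peaks in the control list between chr5:173888549 and chr5:173891386, and none was shared. The one farthest in, 663 bp wide, scored 24.65 and the other 6 scored 10.41 to 13.44. The knockdown list had 2 narrow CPEB4 peaks, both outside the first 10%. SP4, a zinc finger transcription factor, had 6 control start peaks over 690 to 2578 bp from the start, with scores of 11.19 to 14.86, and no knockdown peak. PCDH10, a protocadherin of neuronal adhesion, had 5 with a highest score of 12.96 and no knockdown peak. RANBP2, a large nucleoporin, had 8 control start peaks with scores of 10.26 to 19.84, and 1 knockdown start peak elsewhere with 10.44. The annotated RANBP2 span is 1122820 bp long, and its 8 peaks lie 44774 to 64286.5 bp from the start, so the gene start is a loose term there.

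In the knockdown list the highest start peak without a counterpart was on CDC123, which assembles the eIF2 initiation factor, at chr10:12246132-12246281 with a score of 118.38. It lies on the minus strand of a plus-strand gene, so by the gene's own direction it is near the end. LPP, a LIM domain protein of focal adhesions, had 45.45 at chr3:188225405-188225504, 72433.5 bp into its gene. COPA, the alpha subunit of the COPI coat, had 41.46 at chr1:160340167-160340291 and a second unshared peak with 24.86. DNAH14, a dynein heavy chain, had 38.04, SLC35A5, of the nucleotide sugar transporter family, 34.43, GEMIN8, of the SMN complex, 33.4, ALKBH3, a demethylase of alkylated nucleic acids, 33.06, and POLR3A, the largest subunit of RNA polymerase III, 31.96. GEMIN8, ALKBH3 and POLR3A had no narrow control peak anywhere. SEC24C, of the COPII coat, with 32.49, and SLC4A2, an anion exchanger, with 32.23, are again peaks on the strand opposite to the gene.

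Some genes had more start peaks in the knockdown list. IRS1, the insulin receptor substrate, had 6 knockdown start peaks and 2 control start peaks, which overlapped 2 of the 6. The highest of the 4 others was 100 bp wide, at chr2:226795002-226795101, with 18.42. IRS2, its homologue, had 5 and 4, all shared. TSC22D1, a leucine zipper protein, had 6 and 3, and MGST1, a microsomal glutathione transferase, had 5 and 1 with no overlap. BMPR2, a receptor for bone morphogenetic proteins, had 5 and 4. Neighbouring start peaks are not independent sites, and merging those within 100 bp left 1209 control and 1216 knockdown groups. Of the genes 194 (control) and 157 (knockdown) had 2 or more start peaks.

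For start peaks without a counterpart, the other list was searched for other peaks on the same gene. Of the 588 unshared control start peaks, 130 (22.1%) lay on a gene with another start peak in the knockdown list, 228 (38.8%) on a gene with a narrow knockdown peak farther along, and 96 (16.3%) on a gene with only a wide peak or one that touches other genes. The gene of the remaining 134 (22.8%, 19.6 to 26.3%) had no knockdown peak. Of the 625 unshared knockdown start peaks the same counts were 138 (22.1%), 317 (50.7%), 68 (10.9%) and 102 (16.3%, 13.6 to 19.4%). Most unshared start peaks in either list were therefore on genes that the other list also marked somewhere. The same breakdown was not made for other narrow peaks, so it is not read as a trait of start peaks.

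**Figure D5:**
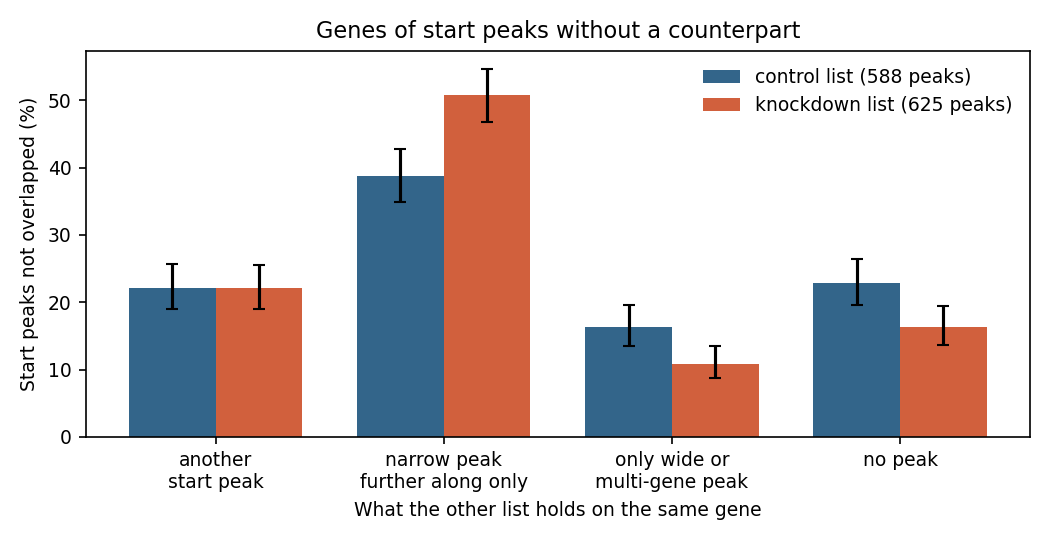
Percent of the unshared start peaks of each list (588 control, 625 knockdown) by what the other list holds on the same gene, with 95% Wilson intervals. A narrow peak farther along is the most frequent class in both, with 38.8% and 50.7%, and no peak at all accounts for 22.8% and 16.3%.

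Counted by gene, 613 genes had a start peak in both lists, 58.4% of the control and 55.4% of the knockdown genes. The control list alone had 436 and the knockdown list alone 494. Of the 436, 335 had some knockdown peak and 101 none, and of the 494, 397 had some control peak and 97 none. For these counts no matching share over all genes with a narrow peak was computed. Without a narrow peak in the other list were 182 of the 436 and 168 of the 494. Set over all genes with a start peak these are 17.3% (control) and 15.2% (knockdown), beside 33.4% of all genes with a narrow control peak and 23.6% of all with a narrow knockdown peak. The genes were not matched for their number of narrow peaks, and the part of that number in this contrast was not tested. Among the 101 genes, chosen here by their number of start peaks after the values were seen, are TM9SF1 (4 peaks), MAF, a leucine zipper transcription factor (4), CNKSR2, a scaffold of postsynaptic signalling (4), PURG (3), PCDH17, a protocadherin (3), and POU3F3, a neural POU domain factor (3). Their highest scores ran from 11.81 to 12.84. The 4 CNKSR2 peaks lie on the minus strand of a plus-strand gene, so by the gene's own direction they are near its end. Among the 97, SMAD7, an inhibitor of TGF-beta signalling, had 2 start peaks with a highest score of 13.13, and GPN2 had 3 with 11.25.

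Genes with a start peak in the control list alone had the longest spans of these groups. Their median span was 60803.5 bp, against 46780 bp for genes of the knockdown list alone, 51463 bp for genes of both lists and 37474 bp for genes with a narrow peak but no start peak. Spans over 200000 bp made up 17.4% (76 genes), 8.50% (42), 11.1% (68) and 10.5%. A long span widens the stretch that counts as its first 10%, and the control start peaks over 5000 bp from the start were the least shared, as given above.

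Direction was taken from the peak's strand, so it was set against the gene's strand where RefSeq gives it. That was possible for 1042 control and 1093 knockdown start peaks. On the opposite strand lay 75 control (7.20%, 5.78 to 8.93%) and 61 knockdown start peaks (5.58%, 4.37 to 7.10%), against 1.48% and 1.73% of the other narrow peaks. By the gene's own direction these peaks lie in its last 10%. That is where narrow peaks are most frequent, and the rule counts the opposite-strand ones from there as start peaks. The higher share is thus set in part by the rule and is not read as a trait of gene starts. The opposite-strand start peaks were shared in 32.0% and 41.0% of cases, against 58.5% and 52.8% of start peaks on the gene's strand. Beside CDC123, SEC24C, SLC4A2 and CNKSR2, they include TUG1, a gene best known for its long noncoding RNA, with an unshared control peak of 23.83. FKBP8, a peptidyl-prolyl isomerase of the outer mitochondrial membrane, has no strand in the table used. Its identical peak of 693 bp with 54.81 and 55.6 is on the plus strand and begins at the first base of the span, and 6 of its 8 narrow peaks are on the minus strand. Whether the libraries keep strand is not stated in the sources used here.

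What the genes share in sequence was read from RefSeq windows of 300 bases, 250 before and 50 after the annotated start, which 13282 of 20037 protein-coding genes have. The promoters of genes with a start peak on the gene's strand within 1000 bp in both lists (331 windows) had a median GC content of 70% and a median of 33 CG dinucleotides. Genes of the control list alone (143) had 68.3% and 30, genes of the knockdown list alone (231) 67.3% and 28, genes with narrow peaks but no start peak (4115) 66.0% and 27, and all genes 62.7% and 22. The letters GGGCGG, searched on both strands, occurred in 84.9%, 78.3%, 80.1%, 72.3% and 58.7% of these windows, in the same order. TATAAA occurred in 6.34%, 6.99%, 6.06%, 5.69% and 10.1%. In the first 50 transcribed bases the median C content was 34% in the genes of both lists and 30% in each other group. A run of 4 CNN units (a C and any 2 bases after it) occurred on the transcript's strand in 45.6% of these first 50 bases in genes of both lists, 39.2% and 41.1% in genes of 1 list, 35.2% in genes without a start peak and 31.5% in all genes. The 56 genes whose start peaks reach these 50 bases did not share this pattern. Their windows had a median GC content of 64.8% and 25.5 CG dinucleotides, GGGCGG in 71.4%, TATAAA in 5.36%, a median C content of 30% in the first 50 bases and the CNN run in 33.9%, all near or below the genes with narrow peaks but no start peak. These letters describe windows and not binding or acetylation sites, most start peaks lie beyond the window, and sequence composition was not matched for RNA level.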

How the data were processed

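Immunoprecipitates and inputs of both arms were sequenced, and the authors deposited 1 peak list per arm with a score per peak on an unstated scale. The tools were fastp 0.20.1 and Bowtie2 2.4.1 on build hg38, per the submitters' processing notes. How peaks were called and thresholded, whether inputs were subtracted, and how replicates and strand were handled is not stated in the sources used here. A list name that fits the control titles gave the control list, and the other was taken as the knockdown list.

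Peaks were assigned to RefSeq gene spans on GRCh38.p14, which carry no exons, so a peak's width can include introns. Gene strand came from the RefSeq promoter table, for 15842 of 20037 protein-coding genes. Peaks whose midpoint fell outside the span were left out. Shares carry 95% Wilson intervals. Python 3.11.15, NumPy 2.4.6, pandas 2.3.3, SciPy 1.17.1 and matplotlib 3.10.9 were used, and the procedures were tested on simulated data.

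The members and the 15 gene lists were chosen with earlier results of these data known. Genes are named by rule: NAT10 and CHAF1A, the 10 highest unshared start peaks of each list, the 10 highest shared control ones, the 5 genes with most start peaks per list, and up to 4 members per gene list by score. Others named were chosen after their values were seen. Alternatives changed the start window, width, score, overlap, strand, list length and gene rules.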

Additional observations from a re-analysis of the deposited data

How the results depend on the processing

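The choices were changed one at a time in 12 settings, 10 of them planned. The knockdown list had the higher share of narrow peaks in the first 10% of the gene in all 8 settings that recompute it. In the main setting its share was also higher in every other stretch except the last. Of 72 recomputed values 50 moved by less than the counting interval or 1.5 times. An overlap of at least 50% of both peaks lowered the shared part to 39.6% of control and 39.6% of knockdown start peaks. A partner of at most 1000 bp, a setting chosen after seeing the data, lowered it to 48.9% and 49.8%, and merging start peaks within 100 bp was added likewise. With the first 5% of the span, start peaks were 5.34% and 6.79% of narrow peaks and 59.0% of the control ones were shared. With a window of 1000 bp they were 5.62% and 7.40%, shared in 65.5% and 60.6%. At scores of 20 or more there were 122 control and 166 knockdown start peaks, 8.59% and 10.9% of such narrow peaks, shared in 86.9% and 81.3%, with 55 genes in the control list alone and 95 in the knockdown list alone. Shortening the control list to the length of the knockdown list gave 61.1% of control and 47.3% of knockdown start peaks shared. With the gene's own direction 6.83% of narrow control peaks were start peaks.

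No paired analysis was possible because the lists do not separate replicates, and for the same reason leaving out a replicate was not run. Depth is unknown, so a peak missing from a list sets no limit on acetylation there.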
